A study of Mus musculus with 9 samples.

Results

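The genes described here encode the machinery that docks and fuses synaptic vesicles and other membrane carriers: synaptotagmins (Syt), syntaxins (Stx), syntaxin binding proteins (Stxbp), vesicle-associated membrane proteins (Vamp), the SNAP family, synapsins (Syn), complexins (Cplx) and the SV2 vesicle proteins. They were chosen by symbol: 62 symbols in the files belonged to these families, and 55 of them had a summed count of at least 90 over the 9 libraries, out of 34590 genes in the files. Values and counts below are over 53 of these, all of which passed the filter on low counts and were tested. The 7 symbols under the summed count included Syt10 with a summed count of 78, Syt15 with 47 and Syt8 with 25. The others were Cplx3 with 4, Cplx4 with 1, Stx19 with 1 and Vamp7 with 0. A separate entry of similar name, Vamp7-ps, held 4223 counts, and whether it took reads of Vamp7 was not tested.

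Membrane fusion is driven by SNARE proteins, which sit on the carrier and on the target membrane and zip together into a bundle. At the synapse the bundle joins a syntaxin and SNAP-25 of the plasma membrane with synaptobrevin (Vamp1 or Vamp2) of the vesicle; complexin acts as its clamp and synaptotagmin as the calcium sensor. Most cells use related SNAREs for constitutive secretion and endosome traffic. At midgestation the telencephalon, the part of the forebrain that gives rise to cortex and basal ganglia, holds mostly dividing progenitors and young neurons that have few mature synapses.

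Total RNA came from telencephalons of mouse embryos at stage E12.5 on a mixed lineage background. The libraries came from 4 embryos with a double knockout of Lats1 and Lats2 driven by Nestin-Cre (dKO) and from 5 control embryos labelled wild type (WT); which embryos shared a litter is not given in the sources used here. Lats1 and Lats2 are Hippo pathway kinases that hold back YAP and TAZ. Nestin-Cre acts in neural progenitors, so that the neurons they form inherit the deletion while vessels and microglia in the same tissue come from other lineages; whether WT embryos carried Cre or floxed alleles is not given in the sources used here. Equal numbers of dissociated cells were pelleted, and ERCC spike-in RNA was added in proportion to cell number.

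The libraries held 16566763 to 45803152 gene counts in dKO and 12906561 to 39263370 in WT. Lats1 was at 59.8 ± 1.07 CPM (counts scaled to library size with TMM factors; SD, n = 4) in dKO and 132 ± 4.55 CPM (n = 5) in WT, a log2 fold change of -1.15. Lats2 was higher in dKO (0.69 on the log2 scale), and as the deleted exons are not given, its gene-level count does not check the label. WT 2, WT 3 and WT 4 stood apart by 39.3% to 41.3% of reads in no gene, against 32.0% to 35.6% in the dKO libraries and 34.39% in WT 1 and 32.55% in WT 5. Results are therefore also given without those 3 libraries. For each spike-in count, dKO libraries held 79.1 ± 5.90 counts in genes (SD over 4 libraries) against 58.1 ± 6.10 in WT libraries (SD over 5), a 1.36-fold difference (p = 0.00794 in a two-sided exact permutation test over 126 assignments, its minimum). Changes are given below on 2 scales, relative to the library (TMM) and per cell (spike-in total).

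Relative to the library, 2 of 4 genes of the neuronal fusion core fell in dKO, beside 12% of all genes. Among the surface SNAREs of other cells 2 of 9 rose, beside 13.7% of all genes. Both lists are small, neither kept a call without WT 2, 3 and 4, and the difference between them was not tested. Of the 53 genes, 11 fell and 7 rose (edgeR quasi-likelihood test, adjusted p under 0.05 over 17182 genes). That is 20.8% falling, beside 12% of all genes tested, and 13.2% rising, beside 13.7% of all genes. The falls were Vamp1, Vamp2, Cplx1, Syn3, Sv2a, Syt5, Syt6, Syt11, Syt16, Stxbp5l and Stx6. The rises were Snap23, Vamp3, Stxbp3a, Stxbp3b, Stxbp6, Stx18 and Syt2. The median over the 53 was -0.11 on the log2 scale, beside -0.0079 over all genes. The dKO and WT libraries did not overlap at 11 of the 53 genes (20.8%, beside 22.3% of all genes tested). The dKO libraries were lower at 4 of the 53 (7.55%, beside 9.74% of all genes) and higher at 7 (13.2%, beside 12.6%).

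**Figure D1:**
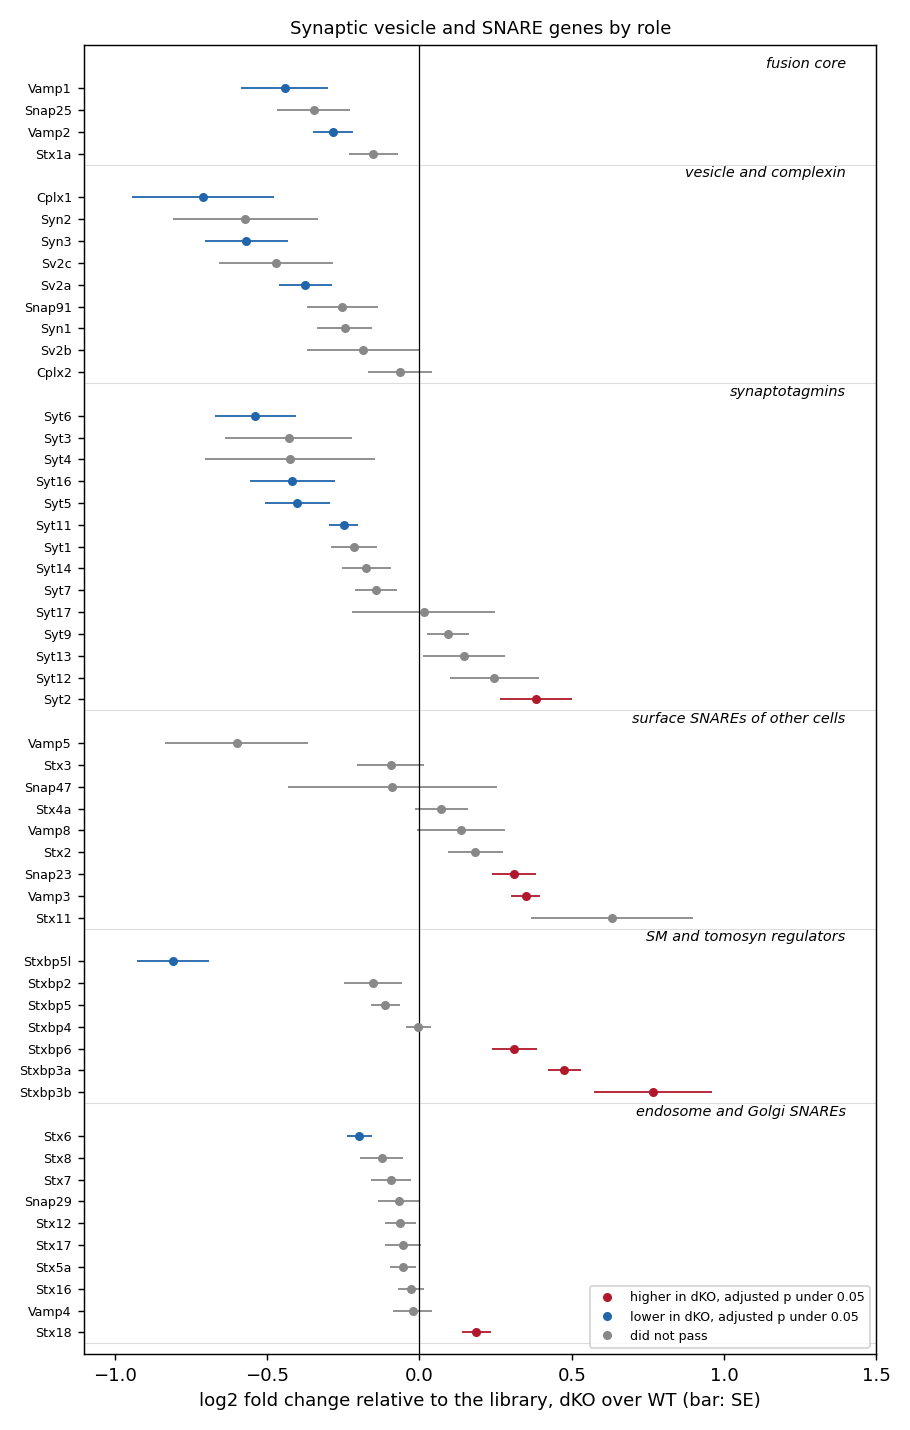
Log2 fold change (dKO over WT) relative to the library for the 53 genes, grouped by role, with bars for the SE; red and blue points passed the adjusted p threshold upward and downward, grey ones did not. All 4 fusion core genes and all 9 vesicle and complexin genes lie left of 0, while the surface SNAREs of other cells spread from -0.60 to 0.63.

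Without WT 2, 3 and 4, 0 genes fell (4 were lower at an unadjusted p under 0.05 in edgeR, the tool used for this setting) and a single gene rose (Stxbp3a), beside 0.972% of all genes falling and 2.33% rising in that fit, and the median over the 53 was -0.042. The fusion core (median -0.16), the vesicle and complexin genes (-0.22), the synaptotagmins (-0.06), the surface SNAREs of other cells (0.15) and the endosome and Golgi SNAREs (-0.02) had 0 calls in either direction. Stxbp3a was also the 1 call that passed in all 18 alternative settings. In the fit without WT 2, 3 and 4 the log2 fold changes kept their sign at the 18 genes called with all libraries. They were smaller for all of them but Stxbp6 (0.38). Of the lost calls, Vamp3 (0.28, adjusted p = 0.0522, edgeR) and Stxbp5l (-0.62, adjusted p = 0.0561) came closest to passing. Others lay much further off, among them Cplx1 (-0.23, adjusted p = 0.688), Syt16 (-0.17, adjusted p = 0.621), Syn3 (-0.31, adjusted p = 0.292) and Snap23 (0.19, adjusted p = 0.269).

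Reference promoters from RefSeq (build GRCm38.p6, 250 bases before to 50 after the start) matched 42 of the 53 genes, with 55 promoters. The letters GGAATG, which TEAD factors bind and through which YAP and TAZ act, stood in 14.5% of these promoters on either strand, beside 14.7% of all 32851 promoters. None of the 8 genes holding them passed the test in either direction, beside 25.7% of all genes tested that passed. With 8 genes this count says little, and sites outside these windows were not searched. GGACAG, a part of the element bound by the neuronal gene repressor REST, stood in 23.6% beside 22.2%. TTCAGCACC, the other part, stood in 1.82% (a single promoter, that of Syn1) beside 0.371%. The 3 promoters below are shown because they hold these letters and belong to a gene that rose (Snap23), to the member with the most counts, which fell (Syt11), and to the only member with TTCAGCACC (Syn1); capitals mark the letters found, on either strand. The windows are chr2:120567421-120567720 on the plus strand for Snap23, chr3:88772550-88772849 on the minus strand for Syt11 and chrX:20920869-20921168 on the minus strand for Syn1. Snap23 and Syt11 hold GGACAG on the opposite strand, and Syn1 holds TTCAGCACC on its own strand. A match is a description of letters and not of binding.
Snap23: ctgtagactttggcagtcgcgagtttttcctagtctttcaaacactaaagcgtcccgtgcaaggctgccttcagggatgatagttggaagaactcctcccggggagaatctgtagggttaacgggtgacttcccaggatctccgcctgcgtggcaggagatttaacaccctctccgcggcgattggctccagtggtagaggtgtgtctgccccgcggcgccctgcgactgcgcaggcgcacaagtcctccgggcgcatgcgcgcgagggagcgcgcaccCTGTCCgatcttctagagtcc
Syt11: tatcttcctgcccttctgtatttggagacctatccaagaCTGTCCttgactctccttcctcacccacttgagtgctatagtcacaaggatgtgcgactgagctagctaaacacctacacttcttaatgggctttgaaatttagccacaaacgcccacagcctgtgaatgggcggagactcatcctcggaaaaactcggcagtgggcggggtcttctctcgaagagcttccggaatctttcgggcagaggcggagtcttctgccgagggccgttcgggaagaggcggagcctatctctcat
Syn1: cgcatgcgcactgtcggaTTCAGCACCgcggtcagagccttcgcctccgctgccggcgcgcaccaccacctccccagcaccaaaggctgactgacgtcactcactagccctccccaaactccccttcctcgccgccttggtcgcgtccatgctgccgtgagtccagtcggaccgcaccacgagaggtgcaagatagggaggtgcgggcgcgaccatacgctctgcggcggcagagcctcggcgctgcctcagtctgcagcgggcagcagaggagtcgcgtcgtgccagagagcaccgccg

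Of 4 genes of the neuronal fusion core (Snap25, Stx1a, Vamp1 and Vamp2), 2 fell relative to the library and 0 rose (0 also at an unadjusted p under 0.05), with a median log2 fold change of -0.32. Stx1a, a syntaxin of the presynaptic membrane, averaged 17.6 ± 1.32 CPM (SD, n = 4) in dKO and 19.5 ± 1.92 CPM (n = 5) in WT and did not pass (-0.15, adjusted p = 0.19).

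Vamp2, the main synaptobrevin of forebrain vesicles, had 18.2, 20.8, 19.4 and 19.5 CPM in dKO, against 21.1, 24.2, 23.5, 25.8 and 23.5 CPM in WT. The groups did not overlap, by a margin smaller than the spread within WT, and the log2 fold change was -0.28 (SE 0.07, adjusted p = 0.00866, edgeR). Vamp1, its relative, had 4.59, 6.75, 7.47 and 6.04 CPM in dKO, against 8.41, 9.73, 8.13, 8.74 and 7.15 CPM in WT (-0.44, SE 0.14, adjusted p = 0.0422). The Vamp1 call did not pass without any 1 of WT 1, WT 2, WT 3, WT 4, dKO 1, dKO 2 or dKO 4 (adjusted p up to 0.103).

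Snap25, which supplies a pair of helices to the bundle, had 36.7, 27.5, 33.7 and 37.0 CPM in dKO, against 34.2, 46.2, 49.96, 45.9 and 37.4 CPM in WT. WT 1 lay inside the dKO range, and the gene did not pass (-0.35, SE 0.12, adjusted p = 0.0532, edgeR), though it passed with DESeq2 (0.0177), with limma-voom (0.0355) and without WT 1 (0.0156). Its change was -0.10 without WT 2, 3 and 4 (adjusted p = 0.693, edgeR). With the ratio of reads in no gene as a covariate it was -0.14 (adjusted p = 0.54, edgeR).

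**Figure D2:**
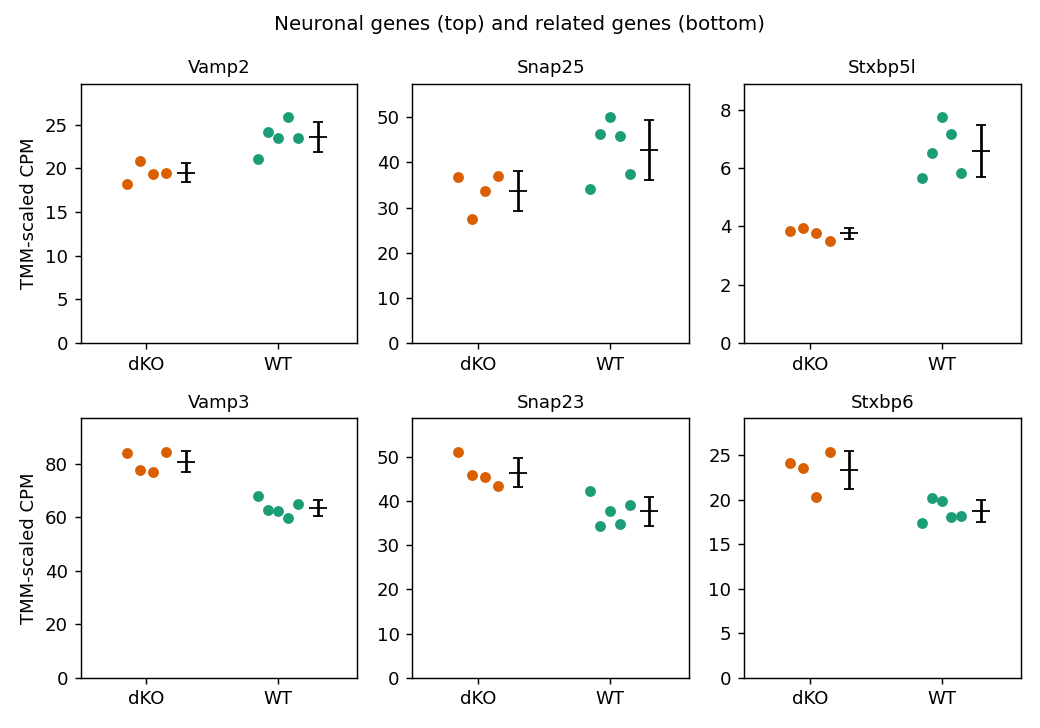
TMM-scaled CPM of each library (points, dKO left and WT right, with the mean and SD as bars). The top row holds 3 neuronal genes, and below each is another gene of the same symbol family. Vamp2 and Stxbp5l are lower and Vamp3, Snap23 and Stxbp6 higher in every dKO library than in every WT library, while Snap25 overlaps.

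Of the SNAREs that other cell types use at the plasma membrane, 9 were tested, and 2 rose relative to the library and 0 fell (at an unadjusted p under 0.05 Vamp5 was lower and Stx11 higher). Vamp3, or cellubrevin, carries endosomal and secretory cargo in most cells. It had 84.1, 77.8, 77.1 and 84.4 CPM in dKO, against 67.9, 62.8, 62.3, 59.9 and 65.0 CPM in WT, and the groups did not overlap (0.35, SE 0.05, adjusted p = 0.000543, edgeR). Snap23, the broadly expressed relative of Snap25, had 51.1, 45.9, 45.6 and 43.5 CPM in dKO, against 42.4, 34.3, 37.8, 34.8 and 39.1 CPM in WT. The lowest dKO library and WT 1 nearly touched, and the log2 fold change was 0.31 (SE 0.07, adjusted p = 0.00927, edgeR). Stx2, which works in cytokinesis and epithelial secretion, averaged 28.8 ± 2.03 CPM in dKO and 25.6 ± 3.34 CPM in WT and passed only when WT 1 was left out (0.26, adjusted p = 0.0344). Stx11, a syntaxin of immune cells, had 1.62, 1.34, 0.941 and 1.77 CPM in dKO and 1.22, 0.939, 0.852, 0.512 and 1.08 CPM in WT, with overlap, and did not pass (0.63, SE 0.27, adjusted p = 0.103, edgeR). Stx3, Stx4a, Vamp5, Vamp8 and Snap47 ranged from -0.60 (Vamp5) to 0.14 (Vamp8) and did not pass. Snap47 was grouped here as a relative of Snap23, although it is known mostly from internal membranes.

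Regulators of the SM and tomosyn type went both ways: 3 of 7 rose and 1 fell, beside 13.7% of all genes rising and 12% falling. Without WT 2, 3 and 4, 1 of them rose (Stxbp3a) and 0 fell. Stxbp3a (Munc18c) serves the surface syntaxins of non-neuronal cells. It had 21.4, 21.8, 20.6 and 21.2 CPM in dKO, against 16.1, 14.9, 14.7, 16.2 and 14.5 CPM in WT. The gap between the groups was wider than the range within either, and the log2 fold change was 0.48 (SE 0.05, adjusted p = 0.000229, edgeR). Stxbp3b, a separate entry of similar name that may share reads with Stxbp3a and is uncertain for that reason, averaged 2.75 ± 0.77 CPM in dKO and 1.58 ± 0.21 CPM in WT (0.77, adjusted p = 0.0138).

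Stxbp6, or amisyn, which has a SNARE motif without a membrane anchor, had 24.2, 23.6, 20.3 and 25.3 CPM in dKO, against 17.4, 20.1, 19.9, 18.1 and 18.2 CPM in WT (0.31, SE 0.07, adjusted p = 0.00961, edgeR). Only dKO 3 lay close to the WT range. Stxbp5l, or tomosyn-2, a neuronal inhibitor of SNARE assembly, had 3.84, 3.94, 3.77 and 3.48 CPM in dKO, against 5.66, 6.51, 7.73, 7.17 and 5.84 CPM in WT. It showed the largest fall of the 53 genes relative to the library, without overlap (-0.81, SE 0.12, adjusted p = 0.000786, edgeR). Stxbp4, a syntaxin 4 partner, had 62.2, 62.01, 61.3 and 57.6 CPM in dKO and 63.8, 60.9, 58.97, 61.7 and 59.9 CPM in WT (-0.0039, SE 0.04, adjusted p = 0.959). Stxbp2 (-0.15) and Stxbp5 (-0.11) did not pass either.

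A ratio of 2 genes within a library does not depend on the scaling. Neuronal genes were therefore set over another gene of the same symbol family in each library. These pairs were chosen after their values were seen, and the ratios are given as a description. Stxbp5l over Stxbp6 had 0.159, 0.167, 0.185 and 0.137 in dKO, against 0.326, 0.323, 0.389, 0.397 and 0.321 in WT. Vamp2 over Vamp3 averaged 0.242 ± 0.023 (SD, n = 4) in dKO and 0.373 ± 0.043 (n = 5) in WT. In both pairs every dKO library lay below every WT library. Snap25 over Snap23 was 0.600 to 0.850 in dKO and 0.805 to 1.35 in WT, with dKO 4 above WT 1. A ratio shows that the 2 genes changed unequally, not which one changed.

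The vesicle proteins and complexins comprised 9 tested genes, with a median of -0.37 relative to the library. Of these, 3 fell and 0 rose (0 rises also at an unadjusted p under 0.05), beside 12% of all genes falling and 13.7% rising. Cplx1, a complexin of mature fast synapses, had 5.94, 3.25, 5.68 and 4.94 CPM in dKO, against 4.51, 9.47, 9.14, 10.4 and 6.79 CPM in WT. WT 1 lay inside the dKO range, and the call (-0.71, SE 0.23, adjusted p = 0.0437, edgeR) was lost on leaving out any 1 of WT 2, WT 3, WT 4 or the 4 dKO libraries. Cplx2, the complexin also found in young neurons, had 111.9, 97.9, 102.4 and 115.4 CPM in dKO and 81.9, 120.6, 127.5, 116.3 and 110.3 CPM in WT, and did not pass (-0.06, adjusted p = 0.696).

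Synapsins coat vesicles and tether them in a reserve pool. Syn3, the member found early in neuronal differentiation, had 15.9, 19.2, 24.3 and 18.8 CPM in dKO, against 24.1, 30.6, 31.2, 34.6 and 24.0 CPM in WT. Only dKO 3 reached the 2 lowest WT libraries, WT 1 and WT 5 (-0.57, SE 0.14, adjusted p = 0.011, edgeR). Syn2 had nearly the same fold change with a larger spread, at 15.9, 10.5, 13.0 and 21.4 CPM in dKO and 12.8, 24.7, 28.0, 27.2 and 17.3 CPM in WT, and did not pass (-0.57, SE 0.24, adjusted p = 0.103). Syn1, whose promoter is printed above, had 7.81, 8.92, 7.05 and 7.08 CPM in dKO and 8.79, 9.76, 8.88, 9.06 and 9.22 CPM in WT (-0.24, adjusted p = 0.0675).

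Sv2a, whose product is a vesicle glycoprotein that binds the drug levetiracetam, had 46.0, 41.1, 47.8 and 49.6 CPM in dKO, against 48.2, 62.3, 67.1, 62.0 and 58.2 CPM in WT. WT 1 fell between the dKO libraries (-0.37, SE 0.09, adjusted p = 0.00968, edgeR). Its relative Sv2b had 26, 24.9, 31.7 and 36.5 CPM in dKO and 23.7, 47.7, 27.5, 37.4 and 31.1 CPM in WT and did not pass (-0.19, adjusted p = 0.503). Sv2c had 1.38, 1.7, 1.03 and 1.34 CPM in dKO and 1.45, 1.93, 1.9, 2.24 and 1.77 CPM in WT (-0.47, adjusted p = 0.0857), with the 2 groups overlapping through dKO 2 and WT 1. Snap91, or AP180, which builds clathrin coats for vesicle recycling, had 53.3, 38.2, 45.8 and 57.99 CPM in dKO and 51.3, 60.8, 64.8, 62.1 and 50.8 CPM in WT (-0.25, adjusted p = 0.136).

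Synaptotagmins are membrane proteins with paired C2 domains, several of which sense calcium. Of 14 tested, 4 fell and 1 rose relative to the library, beside 12% of all genes falling and 13.7% rising. Syt11, a member that does not act as a calcium sensor, had the most counts of any of the 53 genes, also per length at 54.8 CPM per kilobase of exon (GENCODE M21 lengths). It had 259, 266, 266 and 233 CPM in dKO, against 289.6, 309, 306, 319.8 and 297 CPM in WT, without overlap (-0.25, SE 0.05, adjusted p = 0.00307, edgeR). Syt6 had 9.27, 6.93, 8.82 and 10.7 CPM in dKO, against 10.2, 13.2, 13.8, 14.98 and 11.99 CPM in WT (-0.54, SE 0.13, adjusted p = 0.0122, edgeR). Syt5, a synaptotagmin of secretory vesicles, had 15.3, 12.9, 19.4 and 16.5 CPM in dKO, against 19.04, 21.2, 23.7, 21.99 and 19.7 CPM in WT (-0.40, SE 0.11, adjusted p = 0.0185), and did not pass without dKO 1 (adjusted p = 0.0572). For both, WT 1 was the lowest WT library and overlapped with a dKO library.

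Syt1, the calcium sensor for fast release in forebrain neurons, had 89.6, 70.4, 85.7 and 80.9 CPM in dKO and 84.3, 98.4, 105, 94.7 and 91.1 CPM in WT (-0.21, SE 0.08, adjusted p = 0.056, edgeR). Its groups overlapped only through WT 1 and dKO 1 and dKO 3, and DESeq2 called it (adjusted p = 0.0314). Without WT 2, 3 and 4 its change was -0.11 (adjusted p = 0.548, edgeR). Syt2, the fast sensor of hindbrain and some inhibitory synapses, was the 1 synaptotagmin that rose, at 4.95, 4.80, 4.76 and 4.03 CPM in dKO, against 3.98, 3.24, 3.18, 3.65 and 3.92 CPM in WT (0.38, SE 0.12, adjusted p = 0.034). The dKO 4 value barely cleared WT 1, and 6 of the 9 single omissions ended the call (adjusted p up to 0.09). The call on Syt16 (-0.42, adjusted p = 0.0471) was lost in 7 of 9 such omissions, with an adjusted p up to 0.105. The other 8 synaptotagmins (Syt3, Syt4, Syt7, Syt9, Syt12, Syt13, Syt14 and Syt17) ranged from -0.43 (Syt3) to 0.25 (Syt12) and did not pass.

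Of 10 SNAREs of endosomes, Golgi and endoplasmic reticulum, 1 fell and 1 rose relative to the library. These counts stood beside 12% of all genes falling and 13.7% rising, and the median of the 10 was -0.058. Stx6, a trans-Golgi and endosome syntaxin, had 74.9, 76.8, 81.2 and 74.5 CPM in dKO, against 89.2, 83.9, 91.2, 90.7 and 85.8 CPM in WT, without overlap (-0.20, SE 0.04, adjusted p = 0.005, edgeR). Stx18, a syntaxin of the endoplasmic reticulum, had 29.7, 31.8, 30.3 and 29.5 CPM in dKO, against 25.7, 26.4, 27.1, 26.1 and 27.9 CPM in WT, also without overlap (0.19, SE 0.05, adjusted p = 0.0152). In the reference annotation 21.8% of the exon length of Stx18 overlaps a gene on the opposite strand, and the strand setting of the counting is not given, so its count is uncertain; Syt4 and Syt12 overlap opposite-strand genes over 14.5% and 13.0%. Stx12, a syntaxin of early endosomes, had 128.3, 107.4, 113 and 109.9 CPM in dKO and 114, 120.1, 122.6, 120.7 and 121.5 CPM in WT (-0.06, adjusted p = 0.407). The other 7 (Stx5a, Stx7, Stx8, Stx16, Stx17, Snap29 and Vamp4) ranged from -0.12 (Stx8) to -0.02 (Vamp4) and did not pass.

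On the per-cell scale edgeR called 26 of the 53 genes higher in dKO (49.1%, beside 61.1% of all genes) and 0 lower (beside 0.698%). The groups did not overlap at 22 genes, all higher in dKO (41.5%, beside 48.4% of all genes higher and 48.6% in either direction). DESeq2 and limma-voom also called 0 falls, and 1 gene was lower at an unadjusted p under 0.05 (Stxbp5l). The median over the 53 was 0.32, beside 0.43 over all genes. By role, 0 of the 4 fusion core genes rose and 0 fell (median 0.12; Stx1a was higher at an unadjusted p of 0.0424), 1 of 9 vesicle and complexin genes (Cplx2, median 0.057) and 5 of 14 synaptotagmins rose (median 0.24). The risers also included 6 of 9 surface SNAREs of other cells (median 0.58), 5 of 7 regulators (0.43) and 9 of 10 endosome and Golgi SNAREs (0.37). These differences between roles were not tested. When WT 2, 3 and 4 were left out, 26 genes rose and 0 fell, beside 48.2% rising and 0.257% falling among all genes; the fusion core still had 0 rises (median 0.28). Stx1a rose per cell with the ratio of reads in no gene as a covariate (0.40, adjusted p = 0.0369, edgeR), with the replicate block (adjusted p = 0.0398) and without WT 3 (0.0369), WT 4 (0.048) or dKO 1 (0.0181).

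Vamp3 had 5.88, 6.55, 6.07 and 6.96 counts per 1000 spike-in counts in dKO, against 3.68, 3.12, 3.97, 3.65 and 4.05 in WT, without overlap (log2 0.78, SE 0.11, adjusted p = 4.54e-07, edgeR per cell). Stxbp3a rose by 0.91 on the log2 scale (SE 0.12, adjusted p = 4.77e-07). Stxbp5l and Cplx1 had the lowest per-cell values, -0.39 (adjusted p = 0.0662) and -0.30 (adjusted p = 0.199). Of the 11 genes that fell relative to the library, 0 fell per cell. On the per-cell scale all fold changes lie higher than the relative ones by about the median of all genes.

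**Figure D3:**
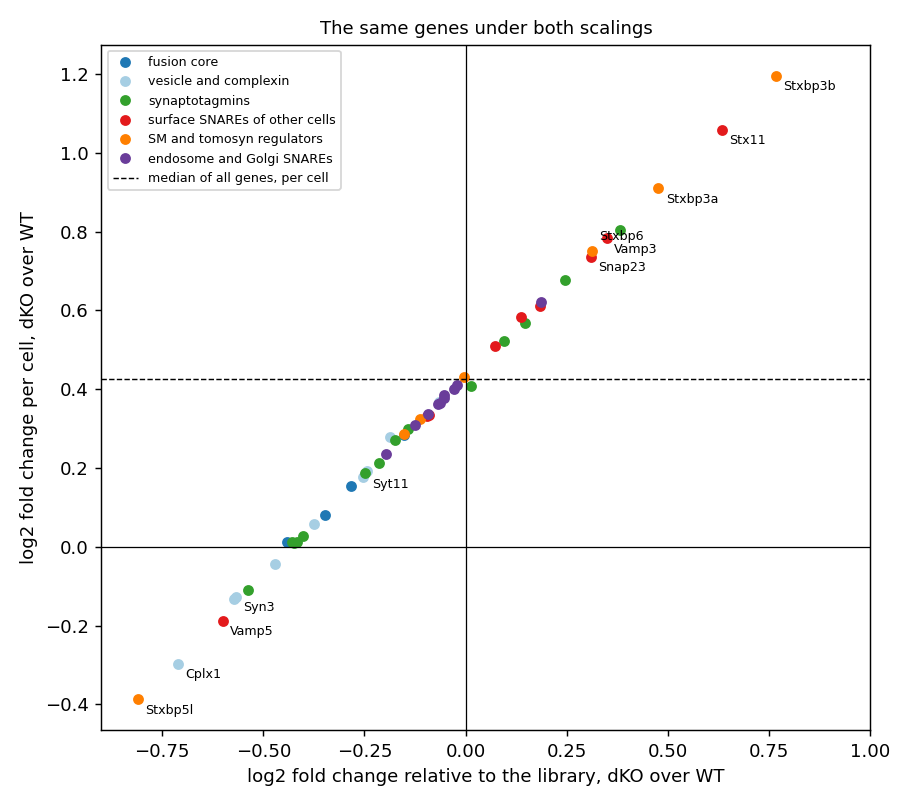
Log2 fold change (dKO over WT) relative to the library on the x axis and per cell on the y axis for the 53 genes, coloured by role; the dashed line is the per-cell median of all genes, 0.43. The points lie near 1 line, since both scalings use the same counts, with Stxbp5l and Cplx1 at its lower end and Stxbp3a, Stx11 and Stxbp3b at its upper end.

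Other presynaptic genes outside these families, from a list of 42, were counted in the same way. Of 41 in the files and tested, 18 fell and 2 rose relative to the library, beside 12% of all genes falling and 13.7% rising, with a median of -0.29. Synj1, a phosphatase of vesicle recycling, averaged 57.0 ± 1.14 CPM in dKO and 72.8 ± 1.77 CPM in WT (-0.35, SE 0.04, adjusted p = 0.000118, edgeR). The vesicular monoamine transporter Slc18a2 had -0.73 (SE 0.09). Slc32a1, which loads GABA into vesicles, had -0.65 (SE 0.09), and Bsn, a scaffold of the active zone, had -0.69 (SE 0.09). Dnm1, the dynamin of vesicle retrieval, had -0.45 (SE 0.06) and the priming factor Unc13a -0.51 (SE 0.08). The rises were Doc2a, a calcium-binding release protein (0.65), and the active zone gene Rims3 (0.22). Per cell, 11 rose, beside 61.1% of all genes, and 1, Slc18a2, fell (-0.30, adjusted p = 0.0472, edgeR), beside 0.698%. Without WT 2, 3 and 4, 5 fell and 0 rose relative to the library, with a median of -0.13, beside 0.972% of all genes falling and 2.33% rising. Per cell, 15 of the 41 rose and 0 fell in that setting, beside 48.2% of all genes rising and 0.257% falling.

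Markers of cell types were set beside these results, with 12% of all genes tested falling and 13.7% rising relative to the library. The 15 tested neuron markers, whose calls were 8 falls and 0 rises (median -0.30), summed to 2700 to 3017 CPM in dKO and 3187 to 3895 CPM in WT, without overlap. The 6 intermediate progenitor markers summed to 364 to 419 CPM in dKO and 425 to 518 CPM in WT, with 4 falls and 0 rises. The 10 progenitor markers summed to 3533 to 4004 CPM in dKO and 2209 to 2615 CPM in WT, with 3 rises (Vim, Nes and Hes1) and 3 falls (Fabp7, Hopx and Hes5). Their median was 0.065, and the sum rests mostly on Vim (mean 1689 CPM in dKO, 709 in WT) and Nes (1178 and 784). Sox2 (0.07), Pax6 (-0.05), Prom1 (0.06) and Slc1a3 (0.23) did not pass. In RNA from whole tissue, fewer neurons and less RNA of these genes per neuron cannot be told apart, and the part of cell composition in the results above was not tested. Without WT 2, 3 and 4 the neuron markers had 2 falls and 0 rises, the intermediate progenitor markers 1 fall and 0 rises, and the progenitor markers 0 falls and 3 rises. In that fit 0.972% of all genes fell and 2.33% rose.

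Sums over markers of other cell types overlapped between the groups: endothelial genes summed to 260 to 340 CPM in dKO and 266 to 343 CPM in WT, and pericyte and mesenchyme genes to 804 to 1118 CPM in dKO and 881 to 1087 CPM in WT. Microglial genes summed to 64.8 to 83.9 CPM in dKO and 56.04 to 68.6 CPM in WT, red cell genes to 54.7 to 122.5 CPM in dKO and 62.6 to 207 CPM in WT, and choroid plexus genes to 171 to 232 CPM in dKO and 119.6 to 461 CPM in WT. Among them the test called Flt1 higher (0.32) and P2ry12 (-0.86) and Aqp1 (-0.81) lower. The lowest mean among these markers was that of Kl, at 0.373 CPM in dKO and 0.747 CPM in WT. The broadly expressed SNAREs are also made by these cell types, and their part in the rises was not tested.

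**Figure D4:**
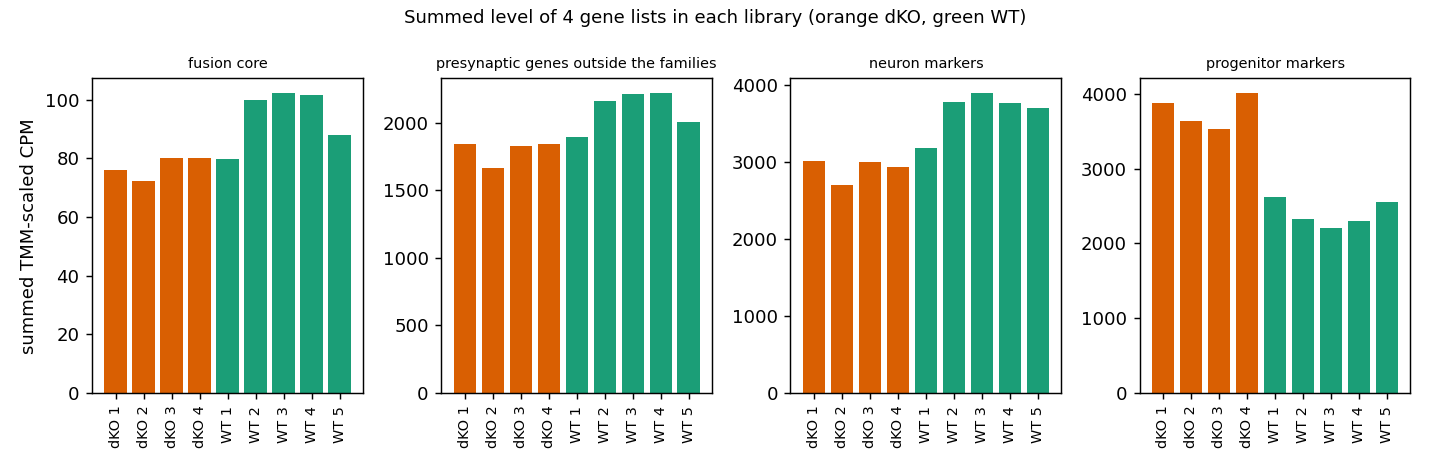
Summed TMM-scaled CPM of the fusion core, the presynaptic genes outside the families, the neuron markers and the progenitor markers in each library (orange dKO left, green WT right). WT 1 is the lowest WT library and dKO 2 the lowest dKO library in the first 3 panels, and the progenitor sum is at least 3533 CPM in each dKO library and at most 2615 CPM in each WT library. Vim and Nes make up most of the progenitor sum.

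WT 1 was the lowest WT library for 3 of 4 fusion core genes, 7 of 9 vesicle and complexin genes, 8 of 14 synaptotagmins, 13 of 15 neuron markers and 6 of 10 endosome and Golgi SNAREs, and for 1 of 9 surface SNAREs of other cells. The fusion core summed to 72.1 CPM in dKO 2, beside 75.9 to 80.2 CPM in the other dKO libraries. It summed to 79.9 CPM in WT 1 and 87.8 CPM in WT 5, beside 99.9 to 102.1 CPM in WT 2, WT 3 and WT 4. The vesicle and complexin genes summed to 257 CPM in WT 1 and 310 CPM in WT 5, inside the dKO range of 246 to 313 CPM. They summed to 361 to 368 CPM in WT 2, WT 3 and WT 4, the libraries with the most reads in no gene. The cause of this split was not tested. WT 1 had the fewest counts of all libraries. Variation within groups, averaged over both, was smallest for Stxbp4, with a coefficient of variation of 3.54% in dKO and 3.05% in WT.

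It was largest for Snap47 at 49.3% in dKO and 36.5% in WT, Syt4 at 39.97% in dKO and 29.9% in WT, and Syn2 at 31.04% in dKO and 30.4% in WT. Snap47 took 2 separate levels within each group: 69.3, 26.1, 31.1 and 72.5 CPM in dKO and 31.04, 66.3, 67.1, 65.7 and 31.9 CPM in WT. No library lay between 31.9 and 65.7 CPM, and both levels occurred in both genotypes (-0.09, SE 0.34, adjusted p = 0.88, edgeR). Syt4, whose product sits on dense-core vesicles, had 92.6, 45.0, 66.4 and 119.6 CPM in dKO and 59.4, 129, 129, 131 and 88.4 CPM in WT (-0.42, SE 0.28, adjusted p = 0.295). The 4 libraries low in Snap47 were also the 4 lowest in Syt4, though without a gap.

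**Figure D5:**
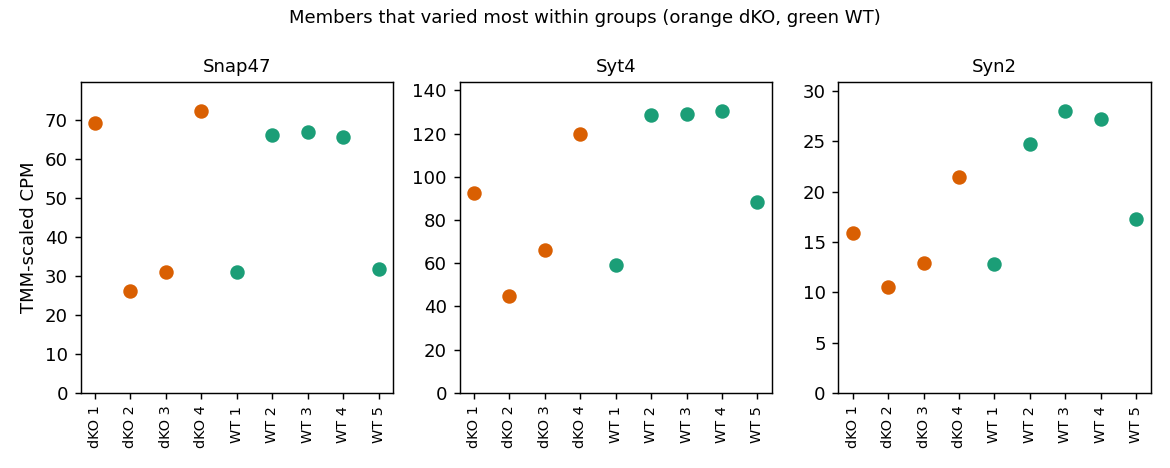
TMM-scaled CPM of Snap47, Syt4 and Syn2 in each library (orange dKO left, green WT right). Snap47 is at most 31.9 CPM in dKO 2, dKO 3, WT 1 and WT 5 and at least 65.7 CPM in the other 5 libraries, whereas Syt4 and Syn2 grade between their extremes.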

How the data were processed

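RNA-seq libraries from 4 dKO and 5 WT telencephalons were analysed. Per the labels' protocols, 350 ng of total RNA per library went into a stranded total RNA kit and was read as 100-base pairs. The deposited values are whole-number read counts per gene; STAR, HTSeq and build mm9 are named in the submitters' processing notes, while the sources used here give no version, annotation or strand setting. Each file lists 34590 genes, 92 spike-ins and 5 rows of the counter that name no gene; those rows stayed out of library sizes, and reads in no gene were 32.0% to 41.3% of each library's reads as counted there.

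The 17182 genes kept by filterByExpr were fitted with edgeR 4.0.16 (quasi-likelihood test, R 4.3.3) on all libraries without covariates, with TMM factors (relative to the library) or with the spike-in total as library size (per cell). P-values were adjusted over all tested genes by the Benjamini-Hochberg method, with a threshold of 0.05. Log2 fold changes are dKO over WT. The alternatives were DESeq2 1.42.0, limma-voom (limma 3.58.1), other scalings and filters, leaving out libraries, a covariate and a replicate block. Gene counts per spike-in count were tested with an exact permutation test. In simulated counts for the relative comparison with 200 of 17049 genes changed by a log2 fold of 1, 94.5% were recovered and 5.5% of calls were false. In the data the 53 genes ranged from -0.81 to 0.77, and 25.7% of all genes were called. The simulated rates therefore do not carry over to the calls above. All 16 pairs of libraries within a group differed. Exon lengths and overlaps came from GENCODE M21 and promoters from RefSeq, both on GRCm38; no coordinates were converted.

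The genes, lists and tests were chosen with earlier results of these data known. Of the 55 genes that met the rule, 2 are not reported here and enter no count, list or sum over members, but stayed in the fits and the adjustment over all genes. Per-library values are given for the 3 genes of each family with the smallest adjusted p relative to the library and the one with the highest mean CPM; of the presynaptic list the 6 with the smallest adjusted p are named. Other genes named (Stx1a, Stx2, Syt1, Syt2, Syt4, Syt16, Snap47, Stxbp3b, the presynaptic rises and the markers) were chosen after their values were seen. With 12906561 to 45803152 gene counts per library, members at a mean of a few CPM rest on the fewest reads, and the number of libraries limits the precision.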

Additional observations from a re-analysis of the deposited data

Results flagged for a closer look

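In 3 of 106 groups tested (53 genes in each genotype), 1 library stood far from the rest of its group; chance flags about 1 in 20 groups. Snap29 had 44.1 CPM in dKO 1, beside 37.3 to 38.2 CPM in the other dKO libraries. Vamp4 had 38.8 CPM in dKO 1, beside 33.8 to 34.2 CPM in the other dKO libraries. Stx1a had 16.2 CPM in WT 1, beside 19.8 to 21.2 CPM in the other WT libraries.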

How the results depend on the processing

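Relative to the library, the 7 rises and 11 falls became 1 and 0 without WT 2, 3 and 4 (edgeR; 4 and 4 at an unadjusted p under 0.05), and 2 and 2 with the ratio of reads in no gene as a covariate; the first of these leaves 2 WT libraries, and the cause was not tested. With the replicate block they became 4 and 9, and per cell 26 and 0. Same-numbered libraries did not deviate together (correlations of -0.289 to 0.159), which cannot settle whether the numbers stand for a shared litter or batch. Other scalings, filters and tools gave 6 or 7 rises and 11 to 13 falls. Leaving out 1 library gave 6 to 8 rises and 8 to 13 falls relative to the library, and 24 to 31 rises and 0 to 2 falls per cell; the falls per cell were 2 without WT 1 and 1 without WT 2 or dKO 4. Of the 18 relative calls, 13 held in every such omission, and Stxbp3a in every setting. The log2 ratio of gene counts per spike-in count was 0.4459 without WT 2, 3 and 4 (exact permutation p = 0.0667, the smallest p of that design). A minimum summed count 10 times as high left 47 of the 53 genes. Over the 25 genes named by rule, both scales and every alternative, 37 of 873 fold changes had the other sign, each for a gene that did not pass on that scale with all libraries.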

Other observations

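The 10 genes whose levels over the 9 libraries were most like those of Snap47 by Pearson's correlation lay on several chromosomes of GRCm38. Mtch2, on chromosome 2, was the closest (r = 0.985), with 157.4, 135.0, 142.8 and 155.9 CPM in dKO and 139.6, 154.2, 155.8, 153.4 and 140.4 CPM in WT. On chromosome 11, where Snap47 also lies, 2610507I01Rik had 3.13, 0.253, 0.571 and 2.26 CPM in dKO and 0.306, 3.13, 3.64, 3.20 and 0.487 CPM in WT. Ublcp1, on chromosome 11 as well, had 23.8, 15.1, 15.3 and 25.6 CPM in dKO and 15.2, 24.3, 20.3, 22.9 and 14.7 CPM in WT. Gm9282, on chromosome 12, was at 0 counts in dKO 2, dKO 3, WT 1 and WT 5, the 4 libraries low in Snap47, and at 2.93 to 5.08 CPM in the others. The others were Sypl on chromosome 12, Camk4 on chromosome 18, Pam on chromosome 1, Glrb on chromosome 3, and C130022K22Rik and Gm17390, for which the annotation used gave no chromosome. These genes were chosen by their likeness, so their levels are a description and carry no test.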
